A study of Mus musculus with 10 samples.

Results

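The 7 genes described here are Arg1, Arg2, Nos2, Mrc1, Retnla, Chi3l3 and Clec10a, which encode the arginases, the inducible nitric oxide synthase and 4 secreted or surface proteins used in the mouse to tell activated macrophages apart. They were measured in 10 spontaneous lymphomas on one-colour Agilent arrays, 1 array and 1 animal per tumour. Members were taken as every non-control probe that carried one of these names in the array files. That found 6 of the 7 names; Clec10a stood under its older symbol Mgl1 and was matched through its transcript record. The set then held 7 genes and 8 probes, out of 27729 gene names on 41174 probes. The set had been chosen by measured values of these same arrays, so which tumours were high or low in it is a description, and the tests below add no independent evidence for the choice.

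Of the 10 mice, 5 were heterozygous for an allele that makes the short LIP form of the transcription factor C/EBPb (+/L) and 5 were wild type (+/+). The +/L mice were 11, 18, 20, 20 and 21 months old at dissection, and the +/+ mice were 20, 23, 26, 26.5 and 29 months old. All had been kept in a pathogen-free facility until a palpable tumour appeared, so the tumours arose without any given agent, and each array holds RNA of a whole piece of lymphoma. Animals are named below by their mouse numbers: 866, 688, 23, 517 and 20 for +/L in order of age, and 17, 19, 40, 101 and 11 for +/+. The +/L mice were the younger group, with 1 of 5 older than the youngest +/+ mouse, so genotype and age are largely confounded. The labels give no strain and no anatomical site, and in the +/L mice tumour cells and other cells of the piece carry the LIP allele alike.

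Arginine is the common substrate. Arginase 1, in the cytosol, and arginase 2, in mitochondria, split it into ornithine and urea, and ornithine feeds the polyamines and proline. Inducible nitric oxide synthase turns the same arginine into nitric oxide and citrulline. In mouse macrophages interferon gamma and microbial products induce Nos2 (classical activation), and interleukin 4 and interleukin 13, acting through STAT6, induce Arg1, Mrc1, Retnla, Chi3l3 and Clec10a (alternative activation). C/EBPb is known as a regulator of Arg1 in mouse macrophages. Its LIP form lacks the activation domain.

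The probes that carry the arginine branch point are shown because the results on detection rest on these 60-base sequences alone. The Arg1 probe lies at chr10:24636194-24636253, minus strand, the Arg2 probe at chr12:80252972-80253031, plus strand, and the Nos2 probe at chr11:78773160-78773219, plus strand, all in mm9 coordinates of the array files. They begin at base 674 of the Arg1 record, base 865 of the Arg2 record and base 3523 of the Nos2 record. Each has an open reading frame along its length, and exon numbers were not used here.
Arg1: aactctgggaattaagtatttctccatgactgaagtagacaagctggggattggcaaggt
Arg2: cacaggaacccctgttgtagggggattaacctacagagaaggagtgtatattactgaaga
Nos2: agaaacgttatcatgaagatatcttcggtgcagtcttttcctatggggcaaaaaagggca

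Values are log2 of the background-corrected signal minus the 75th percentile of the same array. A value of 0 therefore sits at the array's 75th percentile, and 1 unit is a doubling. A probe was called detected where the scanner software marked at least 0.5 of its used spots as well above background. That percentile was 199 to 651 signal units, 48.0% to 66.7% of the spots were well above background, and 0 spots were saturated. The lowest signal well above background was -3.67 in mouse 23 and -3.84 in mouse 20, against -5.92 to -4.31 on the other arrays. The same level can therefore count as detected on some arrays and not on others. On the genotype test 17775 genes were fitted with limma, and 6 of the 7 members were among them: Nos2 was detected on 2 arrays, under the minimum of 3. Transcripts of B and T cells were present in every tumour, with 9 or 10 of 10 B cell markers and 10 of 10 T cell markers detected on each array. On each array 19 of 19 macrophage markers were detected as well. Detection does not give the share of these cells in a piece. Labels and arrays disagreed in 2 ways. Mice 20 (+/L) and 11 (+/+) were labelled male, but their arrays had Xist and none of the Y-linked genes. Barcode entries of the scanner headers grouped mice 866 (+/L) and 17 (+/+) with other arrays than the slide labels did. Each member's result is therefore also given without one or both of these pairs where that moves it by over 1.5 times.

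Most members peaked in 1 animal. Of the 7 members, Arg1, Mrc1, Retnla, Chi3l3 and Clec10a were highest in +/L mouse 866, at 11 months the youngest animal. Over all genes 7.51% were highest in that tumour, and the members' count was known when they were chosen. Nos2 was highest in +/L mouse 20. Arg2 was highest in +/+ mouse 101, by 0.03 over mouse 20. Mouse 20 held the highest value of 4487 of the 17775 genes, so a first or second place there was common among all genes.

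**Figure D1:**
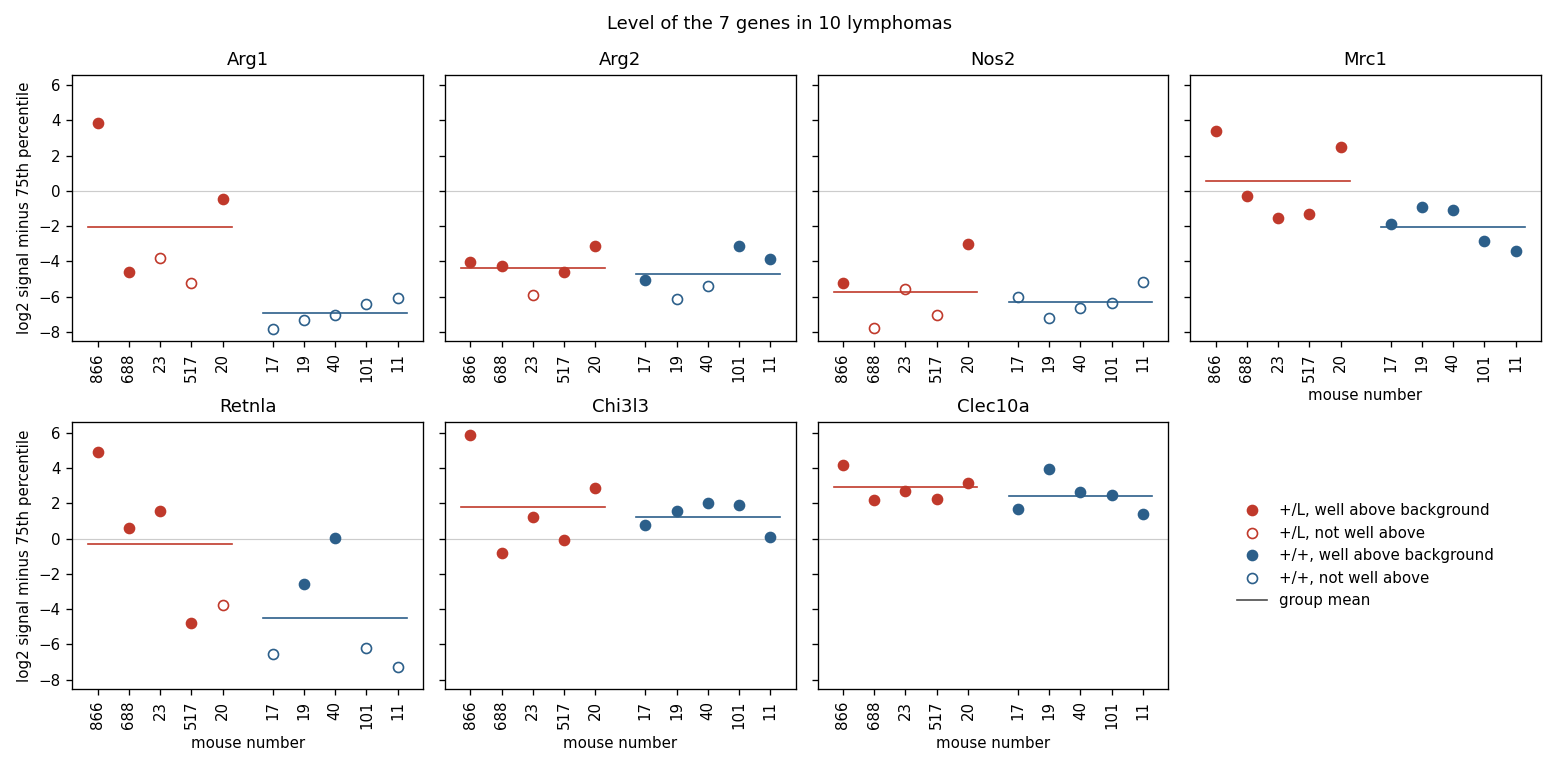
Level of each member in each tumour, as log2 signal minus the array's 75th percentile (vertical axis), with +/L mice left and +/+ mice right. Filled points were well above background, open points were not, and lines are group means. Arg1, Mrc1, Retnla, Chi3l3 and Clec10a peak in mouse 866.

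Arg1, the cytosolic arginase and the most used marker of alternative activation in the mouse, was detected in 3 of 5 +/L tumours and in 0 of 5 +/+ tumours. Its level in the +/L tumours was 3.82 in mouse 866, -4.57 in mouse 688, -3.79 in mouse 23, -5.21 in mouse 517 and -0.44 in mouse 20, and in the +/+ tumours it was -7.84, -7.33, -7.02, -6.41 and -6.05 in mice 17, 19, 40, 101 and 11. Mice 866, 688 and 20 were the detected ones, and the lowest +/L value lay above the highest +/+ value, although signals not above background have no order among themselves. Mouse 23, not detected, had a higher level than mouse 688, detected. The lowest signal well above background was -3.67 on the array of mouse 23 and -5.78 on that of mouse 688. The level in mouse 866 was 19.1-fold that in mouse 20, the next highest. Means were -2.04 ± 3.76 in +/L and -6.93 ± 0.71 in +/+ (SD, n = 5 each).

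The Arg1 difference was 4.89 (SE 1.51, limma adjusted p = 0.539 over all genes tested). Arg1 met the detection filter of the fit through +/L arrays alone, so the filter itself favoured a difference in this direction. Because no +/+ array measured Arg1 above background, the +/L to +/+ ratio on this scale is a bound, at least 8.82-fold higher. It was 3.20-fold without mouse 866, 13.7-fold without mouse 688 and 15.3-fold without mouse 517. It sets the +/L mean against the lowest signal well above background on each +/+ array or the probe's own signal there, whichever is higher, and +/L mice 23 and 517, not detected, enter the +/L mean at their own signal. Groups that did not overlap were found in 1.8% of all genes. In bulk tumours fewer cells of a type and less RNA per cell cannot be told apart.

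The size of the Arg1 difference depended on which animals entered. Without mouse 866 it was 3.43 (adjusted p = 0.605), without mice 866 and 17 it was 3.20, and with age as a covariate it was 2.69. Slides of the scanner headers are groups of arrays with the same barcode entry, and arrays without a barcode would fall together. Within these 3 slides the Arg1 difference was 4.92, 1.55 and 10.69. The third of these compares mouse 866 alone with mice 101 and 19. With a background model that compresses low signals, normexp with quantile normalization, it was 1.87, and it was 1.57 in the authors' deposited table. Both lie below the bound given above.

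Arg2, the mitochondrial arginase, is expressed in many cell types outside the liver. It was detected in 4 of 5 +/L tumours and 3 of 5 +/+ tumours. Levels in +/L mice 866, 688, 23, 517 and 20 were -4.05, -4.23, -5.92, -4.60 and -3.12, and those in +/+ mice 17, 19, 40, 101 and 11 were -5.04, -6.11, -5.41, -3.10 and -3.88. The groups overlapped, and mouse 866 had the fourth highest level of the 10. Means were -4.39 ± 1.02 in +/L and -4.71 ± 1.21 in +/+ (SD, n = 5 each), a difference of 0.32 (SE 0.64, limma adjusted p = 0.913). The sign was not stable: without +/+ mouse 19 the difference was -0.030. Leaving out mice 866 and 17 gave 0.15, and 0.21 came from leaving out mice 20 and 11.

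Nos2, the enzyme on the other side of the branch, was near the limit of the array. It is printed 10 times per array, which allows its error to be seen. All 10 spots were well above background in +/L mice 866 and 20. In the other +/L tumours 0 spots passed, and in the +/+ tumours 1, 0, 0, 0 and 3 spots passed in mice 17, 19, 40, 101 and 11.

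Mean Nos2 levels were -5.24 in mouse 866, -7.77 in mouse 688, -5.57 in mouse 23, -7.01 in mouse 517 and -3.01 in mouse 20 for +/L, and -6.00, -7.21, -6.66, -6.33 and -5.18 in mice 17, 19, 40, 101 and 11 for +/+. Mouse 20 had the highest level, and the next highest, in +/+ mouse 11, was not detected. Spots within an array had SDs of 0.13 in mouse 866 and 0.13 in mouse 20, against up to 0.56 on arrays where the probe was not detected. Group means were -5.72 ± 1.83 in +/L and -6.28 ± 0.76 in +/+ (SD, n = 5 each). The difference of 0.55 gave an exact permutation p of 0.587 (two-sided), and no fold is given because its bound was under 1. The difference was 0.15 without mice 20 and 11.

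**Figure D2:**
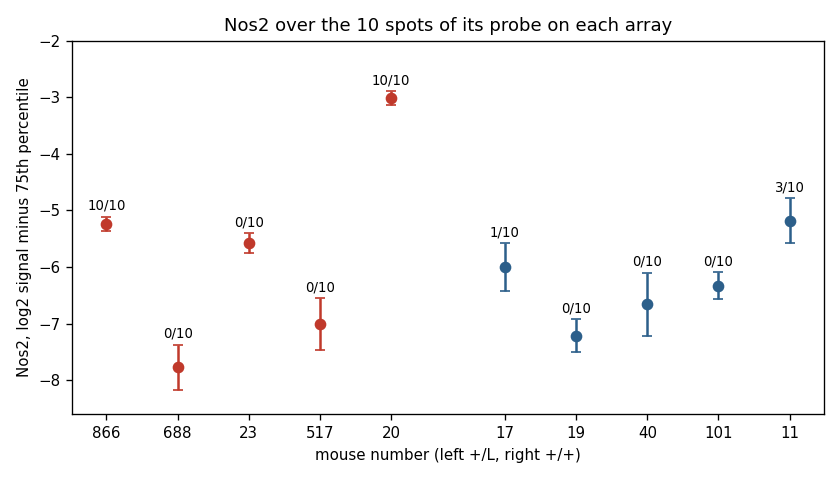
Nos2 level on each array, as the mean over its spots with the SD over spots as error bars (log2 signal minus the array's 75th percentile), with +/L mice left and +/+ mice right. The label at each point gives the spots well above background out of those printed. The detected arrays are mice 866 and 20.

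Arg1 and Nos2 were thus detected together in 2 tumours, mice 866 and 20. Arg1 was also detected in mouse 688 with Nos2 not detected, and neither was detected in any +/+ tumour. By the scanner software's less strict flag, positive and significant against the local background, Arg1 passed on 7 arrays, 5 +/L and 2 +/+, and Nos2 on 5 arrays, 2 +/L and 3 +/+.

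The remaining members encode lectins and secreted proteins. Mrc1, the mannose receptor CD206, was detected in every tumour by a probe at chr2:14253304-14253364 (mm9, plus strand). Levels were 3.38, -0.28, -1.53, -1.33 and 2.46 in +/L mice 866, 688, 23, 517 and 20, and -1.88, -0.92, -1.09, -2.86 and -3.43 in +/+ mice 17, 19, 40, 101 and 11. Mice 866 and 20 were far above the others, and the remaining 3 +/L tumours lay within the +/+ range or just above it. Means were 0.54 ± 2.25 in +/L and -2.03 ± 1.09 in +/+ (SD, n = 5 each), a difference of 2.58 (SE 0.99, limma adjusted p = 0.557). It was 1.87 without mouse 866, 1.75 without mice 20 and 11, and 0.71 with age as a covariate. Within the 3 slides it was 2.58, 2.0 and 5.27.

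Retnla, the secreted resistin-like molecule also called FIZZ1, was detected in 4 of 5 +/L and 2 of 5 +/+ tumours by its main probe (chr16:48844447-48844506, mm9, plus strand). Levels were 4.88, 0.62, 1.55, -4.80 and -3.74 in +/L mice 866, 688, 23, 517 and 20, and -6.52, -2.58, 0.06, -6.19 and -7.25 in +/+ mice 17, 19, 40, 101 and 11. High tumours were found in both groups, mice 866, 23 and 688 in +/L and mouse 40 in +/+, and unlike Arg1 and Mrc1 it was not detected in mouse 20. Its level in mouse 20 was still above that in mouse 517, where it was detected. The lowest signal well above background was -3.84 on the array of mouse 20 and -5.31 on that of mouse 517.

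Retnla means were -0.30 ± 3.98 in +/L and -4.50 ± 3.12 in +/+ (SD, n = 5 each), a difference of 4.20 (SE 2.0, limma adjusted p = 0.589). A second Retnla probe shares 50 of its 60 bases with the first and is no separate measurement of the gene. Its difference was 3.0, or 1.58 without mouse 866, and it too was highest in mouse 866, at 4.39. This second probe was detected in 3 of 5 +/L and 2 of 5 +/+ tumours. In mouse 517, where the main probe was detected, it was not detected and had its lowest level, -6.69. The difference of the main probe was 2.90 without mouse 866, 2.40 without mice 866 and 17, 2.21 with normexp and quantile normalization and 0.90 with age as a covariate. Within the 3 slides it was 1.67, 5.63 and 9.27.

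Chi3l3, now named Chil3, encodes the secreted chitinase-like protein Ym1, which alternatively activated macrophages and immature neutrophils of the mouse both make. Its probe (chr3:105950485-105950544, mm9, minus strand) was detected in every tumour. Levels were 5.88, -0.80, 1.20, -0.08 and 2.84 in +/L mice 866, 688, 23, 517 and 20, and 0.74, 1.54, 2.01, 1.87 and 0.06 in +/+ mice 17, 19, 40, 101 and 11. The highest and the lowest tumour were both +/L. The level in mouse 866 was 8.25-fold that in mouse 20, the next highest.

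Chi3l3 means were 1.81 ± 2.66 in +/L and 1.25 ± 0.82 in +/+ (SD, n = 5 each), a difference of 0.56 (SE 1.11, limma adjusted p = 0.913). The sign of the Chi3l3 difference rested on mouse 866, since without it the difference was -0.46. It was -0.58 without mice 866 and 17 and 0.0099 without mice 20 and 11. It was -1.34 with age as a covariate and 1.59 with the macrophage marker score, explained below, as a covariate.

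Clec10a, the galactose-type lectin MGL1 of macrophages and dendritic cells, was also detected in every tumour (probe at chr11:69984232-69984291, mm9, plus strand). Levels were 4.17, 2.19, 2.69, 2.24 and 3.17 in +/L mice 866, 688, 23, 517 and 20, and 1.66, 3.96, 2.62, 2.48 and 1.41 in +/+ mice 17, 19, 40, 101 and 11. The tumours lay within a narrow range, and mouse 866 exceeded +/+ mouse 19 by 0.21. Means were 2.89 ± 0.82 in +/L and 2.43 ± 1.0 in +/+ (SD, n = 5 each), a difference of 0.46 (SE 0.53, limma adjusted p = 0.834), which was -0.048 without mice 866 and 17, 0.14 without mice 20 and 11 and -0.32 with age as a covariate.

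Between the genotypes, all 6 members in the fit had a higher mean in +/L, as did 8550 of the 17775 genes, and the members were chosen with their values known. That count did not hold without mouse 866 (Chi3l3 -0.46) or with age as a covariate (Chi3l3 -1.34, Clec10a -0.32). Of the 6, 0 passed an adjusted p of 0.05, as was true of 0% of all genes. At an unadjusted p under 0.05, 2 of the 6 (Arg1 and Mrc1) and 1525 of the 17775 genes passed. Arg1 entered the fit only through the +/L arrays where it was high, so its place in this count is no support. In +/L the SD of every member but Clec10a and Arg2 exceeded that in +/+, with mouse 866 the highest +/L tumour for Arg1, Mrc1, Retnla and Chi3l3 and mouse 20 for Nos2.

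**Figure D3:**
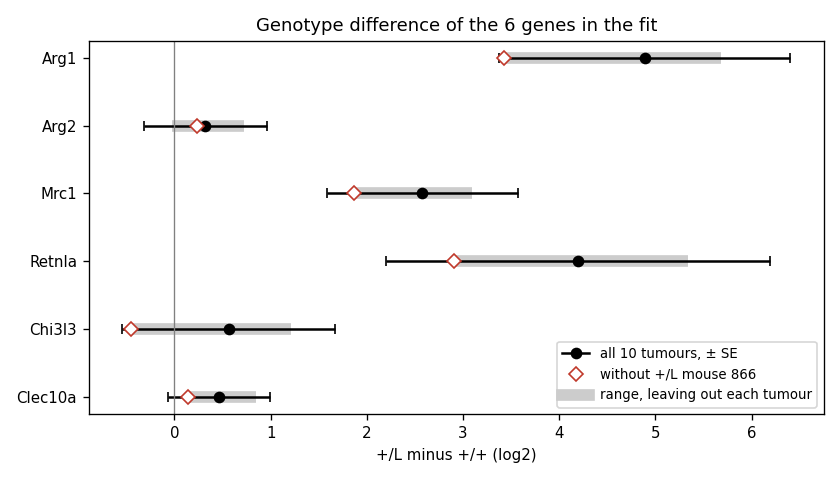
Genotype difference of each member in the fit, +/L minus +/+ on the log2 scale (horizontal axis), with all 10 mice and with mouse 866 left out. Error bars are the SE of the limma fit, and grey bars give the range when each tumour is left out in turn. Arg1 is at 4.89 with all mice and 3.43 without mouse 866, and Chi3l3, at 0.56 with all mice, is at -0.46 without it.

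The wider programmes were read from gene lists. Of 21 other alternative activation genes in the fit, 16 were higher and 5 lower in +/L, with a median difference of 0.62 and 0 past adjusted p 0.05. Over all genes 8550 were higher and 9225 lower, with a median of -0.02. The median level of the list, each gene taken relative to its own mean over the 10 tumours, was 1.54 in mouse 866 and between -0.34 and 0.49 in the other +/L tumours, against -0.48 to -0.27 in the +/+ tumours. In 12 of the 21 genes mouse 866 was highest, and without it the median difference was 0.26.

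Among these genes Ccl24, an eosinophil-attracting chemokine, had 6.44, -1.21, 2.20, -0.66 and -3.26 in +/L mice 866, 688, 23, 517 and 20, and -3.28, -3.81, -4.03, -4.50 and -1.78 in +/+ mice 17, 19, 40, 101 and 11. Its difference was 4.18 (limma adjusted p = 0.552), which was 2.75 without mouse 866. While 4 of 5 +/L tumours were above every +/+ tumour, mouse 20 was within the +/+ range. How many of all genes had such an order was not counted, and Ccl24 was named for its low unadjusted p in this fit. Cd163, the haemoglobin scavenger receptor, was detected in +/L mice 866, 688 and 20 and in 0 of 5 +/+ tumours, the same arrays that detected Arg1. Like Arg1, Cd163 met the detection filter of the fit through +/L arrays alone. The Cd163 difference was 4.41 (limma adjusted p = 0.539). As a bound, which carries no test, its ratio was at least 5.56-fold higher in +/L. That bound was 3.50-fold without mouse 866, 2.79-fold without mouse 20 and 12.7-fold without mouse 517, and mice 23 and 517 enter it at signals not above background. Ccl17, a chemokine for Th2 cells, had a difference of 1.57 (adjusted p = 0.568) and was highest in mouse 20, and Cd209a, a lectin of dendritic cells, was detected in +/L mice 866 and 688 and in +/+ mouse 19, where it was highest. Its difference was 0.91 (adjusted p = 0.568), with 7 of 10 arrays not above background.

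Classical activation genes lay the other way. Of 22 in the fit, 6 were higher and 16 lower in +/L, with a median difference of -0.53, a median of -0.68 without mouse 866, and 0 past adjusted p 0.05. The list's median level was 0.32 in mouse 866 and -0.65 to -0.16 in the other +/L tumours, against -0.0043 to 0.80 in the +/+ tumours. Irf1, an interferon-induced transcription factor, averaged 5.69 ± 0.50 in +/L and 6.34 ± 0.37 in +/+ (SD, n = 5 each), a difference of -0.66 (limma adjusted p = 0.568). Cxcl11, an interferon-induced chemokine, had a difference of -2.33 (adjusted p = 0.539), and Fpr2, a formyl peptide receptor, of -1.68 (adjusted p = 0.568). Irf1 and Cxcl11 were highest in +/+ mouse 101, where the member Nos2 was not detected.

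**Figure D4:**
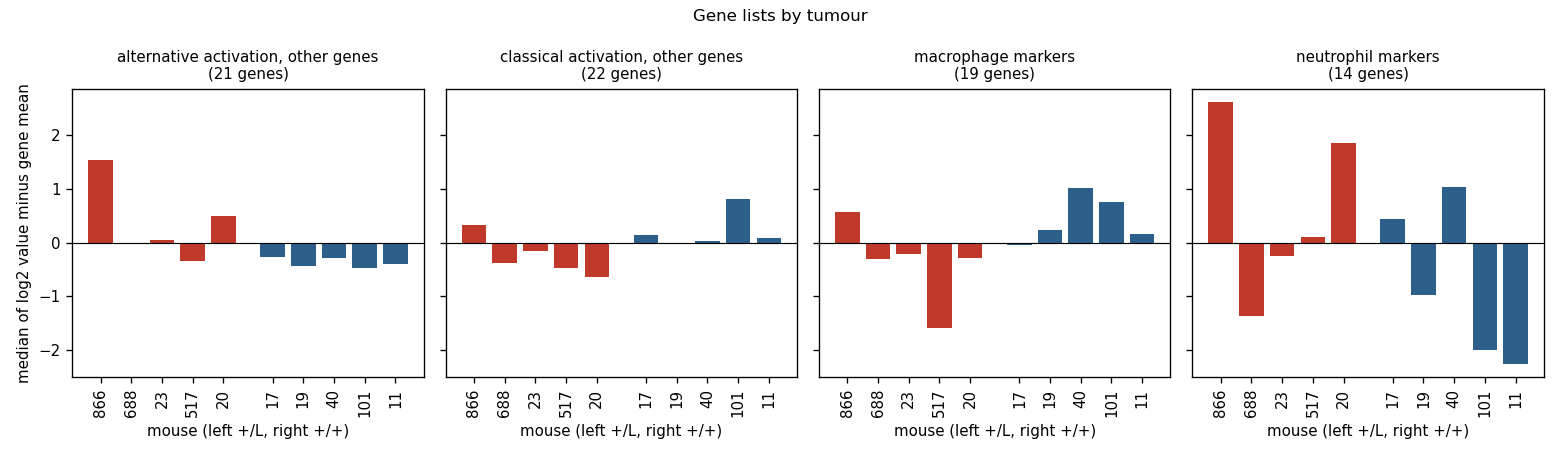
Median level of each gene list in each tumour, with each gene relative to its mean over the 10 tumours (log2 scale), +/L mice left and +/+ mice right. The alternative activation list stands at 1.54 in mouse 866, and the classical list at 0.80 in +/+ mouse 101.

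Genes that supply or use arginine were also counted. Of 17 arginine and polyamine genes, 5 were higher and 12 lower in +/L (median -0.08, 0 past adjusted p 0.05). Prodh, proline dehydrogenase, averaged 0.56 ± 0.22 in +/L and 1.24 ± 0.18 in +/+ (SD, n = 5 each), a difference of -0.68 (limma adjusted p = 0.539). Every +/L tumour was below every +/+ tumour, while 1.8% of all genes had groups that did not overlap. Prodh was named for its low unadjusted p in this same fit, so the separation is no added support. Asl, argininosuccinate lyase of arginine synthesis, had a difference of -0.56 (adjusted p = 0.586), Aldh18a1, the first enzyme of proline synthesis, of -0.47 (adjusted p = 0.637), and Slc3a2, the heavy chain of amino acid carriers, of -0.43 (adjusted p = 0.753). In mouse 866, where Arg1 peaked, the list's median was -0.47, the lowest of the 10 tumours.

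Of 13 genes around nitric oxide synthesis, 7 were higher and 6 lower in +/L (median 0.02, 0 past adjusted p 0.05). Nosip, which binds the endothelial nitric oxide synthase, averaged 3.34 ± 0.35 in +/L and 4.69 ± 0.31 in +/+ (SD, n = 5 each), a difference of -1.36 (limma adjusted p = 0.313). Every +/L tumour was below every +/+ tumour, against 1.8% of all genes with groups that did not overlap. Nosip too was named for its low unadjusted p in this fit. Ddah1, which degrades a natural inhibitor of the synthases, had a difference of 0.92 (adjusted p = 0.610), Pts, an enzyme of tetrahydrobiopterin synthesis, of 0.51 (adjusted p = 0.557), and Nostrin, a trafficking protein of the endothelial synthase, of -0.51 (adjusted p = 0.632).

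The cytokines that drive the 2 programmes and their signalling genes held 19 in the fit, of which 7 were higher and 12 lower in +/L (median -0.30, 0 past adjusted p 0.05). Il4, the inducing cytokine, averaged -1.12 ± 1.21 in +/L and -2.70 ± 0.83 in +/+ (SD, n = 5 each), a difference of 1.58 (limma adjusted p = 0.557), and was highest in mouse 866 at 0.14. Il1rl1, the receptor of the alarmin IL-33, had a difference of 1.86 (adjusted p = 0.543) and was also highest in mouse 866, at 1.74. Il2rg, the common gamma chain, had a difference of -0.60 (adjusted p = 0.584).

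Macrophage content was followed with 19 marker genes. In +/L 3 were higher and 16 lower, with a median difference of -0.76, which was -0.98 without mouse 866, and 0 past adjusted p 0.05. The list's median level was 0.58 in mouse 866 and -1.60 to -0.21 in the other +/L tumours, against -0.04 to 1.02 in the +/+ tumours. Cd68, a lysosomal glycoprotein, averaged 2.84 ± 1.55 in +/L and 3.81 ± 0.34 in +/+ (SD, n = 5 each). C1qa, a complement C1q chain, had a difference of -1.44 (limma adjusted p = 0.543), Csf1r, the receptor for the macrophage growth factor, of -0.99 (adjusted p = 0.595), and Adgre1, an adhesion receptor of mature mouse macrophages, of -0.52 (adjusted p = 0.893). Arg1, Mrc1 and Retnla were higher on average in the group whose macrophage markers were lower on average. Mouse 866, the highest tumour for each of these members, also had the highest macrophage list median of the +/L tumours, at 0.58. The part of macrophage content in these group averages was not tested.

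The mean of the macrophage markers, each relative to its mean over the 10 tumours, was used as a score. With this score as a covariate the genotype difference was 6.17 for Arg1, 3.46 for Mrc1 and 6.63 for Retnla (limma adjusted p = 0.541, 0.623 and 0.309). Over the 10 tumours the 5 members detected on at least 5 arrays had Pearson r to the score of -0.08 for Arg2, 0.18 for Mrc1, 0.42 for Retnla, 0.52 for Chi3l3 and 0.35 for Clec10a.

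None of these 5 relations passed correction. The highest, Chi3l3, had Pearson r = 0.52 (permutation p = 0.0964) and Spearman rho = 0.49 (permutation p = 0.154), and all 5 adjusted Pearson p-values lay between 0.482 and 0.846. Spearman rho was -0.14 for Arg2 (permutation p = 0.709), 0.21 for Mrc1 (0.554), 0.42 for Retnla (0.231) and 0.36 for Clec10a (0.311). Without the 2 tumours farthest from the median score, mice 517 and 40, Pearson r was 0.09, 0.32, 0.42, 0.64 and 0.57 in the order Arg2, Mrc1, Retnla, Chi3l3 and Clec10a. With the genotype means removed it was -0.02, 0.62, 0.85, 0.65 and 0.53 in that order. Slides held 3 or 4 arrays each, too few for a value within them.

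**Figure D5:**
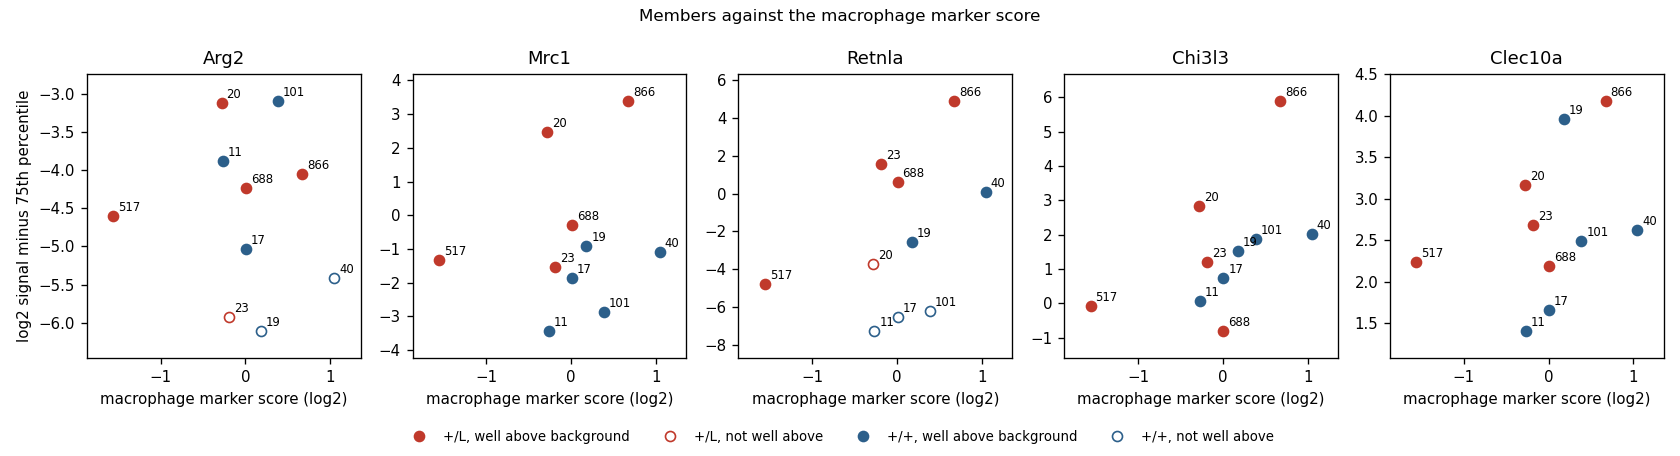
Level of 5 members (log2 signal minus the array's 75th percentile) against the macrophage marker score of the same tumour (log2). Filled points were well above background, and numbers are mouse numbers. Mouse 866 is the highest point in the panels of Mrc1, Retnla, Chi3l3 and Clec10a.

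Markers of other cell types were also counted, with 0 past adjusted p 0.05 in each list. Of 14 neutrophil markers, 13 were higher in +/L, with a median difference of 1.18, which was 0.65 without mouse 866. The list's median was 2.61, -1.36, -0.25, 0.11 and 1.85 in +/L mice 866, 688, 23, 517 and 20, against -2.27 to 1.03 in the +/+ tumours, and 8 markers were highest in mouse 866. Of 13 eosinophil, basophil and mast cell markers, 12 were higher in +/L (median 1.66), and the list's median was 0.71 in mouse 866 and 2.37 in mouse 20.

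Adipocyte markers had the largest median difference of the lists, 2.03 (2.09 without mouse 866), with 9 of 11 higher in +/L. Their median was 1.27, 2.94, 0.11, -1.58 and 1.13 in +/L mice 866, 688, 23, 517 and 20, and -0.19, -1.06, 1.80, -1.53 and -2.30 in +/+ mice 17, 19, 40, 101 and 11. Mice 866, 688 and 40, high in this list, were also among the tumours with high Retnla. Mouse 23, next highest in Retnla after mouse 866, stood at only 0.11 in the list, and mouse 20 was high in the list and had no detected Retnla. Hepatocytes are the main site of Arg1 in the mouse, and 6 of 10 hepatocyte markers were in the fit, 1 of them higher in +/L. Their median was -1.04, -0.40, -0.38, -0.28 and 0.89 in +/L mice 866, 688, 23, 517 and 20, against -0.13 to 0.45 in the +/+ tumours. It was thus the lowest of the 10 in mouse 866, which had the highest Arg1, and the highest in mouse 20, which had the next highest Arg1. All 6 markers were detected in mouse 20 and also in +/+ mouse 40, which had no detected Arg1. In mouse 20 the epithelial list stood at 3.14 and the T cell list at -1.70. The B cell list stood at -1.72 in mouse 866. These B and T cell values were each the lowest of the 10 tumours. The part of these cell types in the levels of the members was not tested.

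The genes most like each member across the 10 tumours were found among 12949 detected genes with a current symbol, without a test. Chi3l3 was most like Chil4, its chitinase-like paralog (Pearson r = 0.99, and 0.96 without mouse 866), then Ccl6 (0.92), Lrp1 (0.90) and Cetn1 (0.90). Without mouse 866 these last r were 0.80, 0.85 and 0.80 in that order. Chil4 had 2.06, -5.17, -3.12, -4.01 and -0.94 in +/L mice 866, 688, 23, 517 and 20, and -3.12, -2.70, -2.66, -2.54 and -3.69 in +/+ mice 17, 19, 40, 101 and 11. The paralogs are close in sequence, so part of each probe's signal may come from the other transcript; that was not tested.

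Mrc1 was most like Adgra2 (r = 0.95), St3gal4 (0.93), C6 (0.92) and F13a1 (0.92). F13a1, coagulation factor XIII A chain, is itself a gene of alternatively activated macrophages. Retnla was most like Mfap2 (0.95), Bmper (0.91), Ddah1 (0.91) and Cyp7b1 (0.89). Clec10a was most like Svep1 (0.93), Lrp1 (0.88), Fam234b (0.87) and Unc5a (0.86). Arg2 was most like Wdr53 (0.90), Thg1l (0.90), Tmem183a (0.88) and Grtp1 (0.87). Without mouse 866 r fell to 0.81 for Retnla with Cyp7b1 and to 0.79 for Clec10a with Unc5a. It rose to 0.93 for Mrc1 with F13a1 and to 0.91 for Clec10a with Fam234b. All of these rankings use the same 10 arrays, which differ in depth and in their content of other cells. Each gene was picked as among the highest of all those searched, so a high r alone carries little weight.

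Promoter sequence was at hand for 3 of the 7 members, from RefSeq on GRCm38.p6: Mrc1, Retnla and Chil3. The Retnla window is shown because it held motifs of both C/EBP and the factor that carries the interleukin 4 signal. Capitals mark matches to a C/EBP motif (TTGCNNAA) and a STAT6 motif (TTC and GAA with 4 bases of any kind between them), searched on both strands in the 250 bases before the start site. The Retnla window is chr16:48842359-48842608, plus strand.
Retnla: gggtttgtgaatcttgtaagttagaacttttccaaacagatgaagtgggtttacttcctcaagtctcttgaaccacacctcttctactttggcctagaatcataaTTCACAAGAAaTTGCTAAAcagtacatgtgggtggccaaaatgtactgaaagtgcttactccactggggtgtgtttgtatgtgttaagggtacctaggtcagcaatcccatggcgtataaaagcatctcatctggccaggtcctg

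In Retnla the STAT6 motif TTCACAAGAA (bases -145 to -136) and the C/EBP motif TTGCTAAA (bases -134 to -127) stood 1 base apart without overlap. The Mrc1 and Chil3 windows had no match to either motif. Over 32851 promoters of the same length 9.56% held the C/EBP motif and 5.85% the STAT6 motif. These matches describe letters in a window, and no binding was measured in these tumours.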

How the data were processed

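RNA of 10 mouse lymphomas was labelled with Cy3 and hybridised to one-colour Agilent arrays, per the labels' protocols. The deposited scanner files hold a background-corrected intensity for each spot, and per the file headers the software was Agilent's Feature Extraction, version 10.5.1.1. The authors' deposited value table holds log2 values of unstated centring (column medians 6.96 to 6.97) and served as an alternative. The scanner intensities were scaled by log2 minus each array's 75th percentile, and the unflagged spots of each probe were averaged. Probes had to be well above background on at least 3 arrays (26410, after 69 were left out for an outlier flag on all spots of an array), and the probe of highest mean stood for a gene. Genes were named through RefSeq where a record or symbol matched.

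Genotypes were compared, 5 arrays against 5, with limma 3.58.1 in R 4.3.3 (lmFit, eBayes, Benjamini-Hochberg over 17775 genes), tested on simulated data, and single members with an exact permutation test. Correlation p-values used 100000 permutations. Python 3.11.15, numpy 2.4.6 and scipy 1.17.1 were used. Genotypes shared no replicate numbers. Array number limits the precision.

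Members and gene lists were chosen with earlier results of these data known. Every member probe is described; from each role or pathway list the 4 genes of lowest unadjusted p are named, with Cd68, Csf1r, Adgre1 and C1qa for macrophages, and the 4 most alike genes per member. One gene that this rule names, and one promoter motif searched, are not reported here. The dendritic cell list had 5 genes higher and 6 lower in +/L, adipocytes 9 and 2, endothelium 6 and 4, epithelium 6 and 2, B cells 2 and 8, and T cells 2 and 8. Alternatives covered background correction, scaling, filter, probe rule, slide, age, sex, cell content, the array set and the test.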

Additional observations from a re-analysis of the deposited data

How the results depend on the processing

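No member passed an adjusted p of 0.05 with limma under any alternative that was run, and the adjusted p ranged from 0.30 to 0.999 for Arg1, 0.407 to 0.999 for Mrc1, 0.309 to 0.999 for Retnla, 0.617 to 1.0 for Arg2, 0.690 to 1.0 for Chi3l3 and 0.674 to 0.999 for Clec10a. Arg1, Mrc1 and Retnla were higher in +/L in every setting that gave them a value, while Arg2, Chi3l3 and Clec10a changed sign. The Arg1 difference of 4.89 passed an unadjusted threshold of 0.05 by the exact two-sided permutation test (p = 0.0079, the smallest that 5 against 5 allows), but 7 of the 10 signals were not above background and have no measured order, so nothing rests on that p. Arg2 was -0.10 with normexp and quantile normalization, -0.067 in the authors' deposited table and -1.39 within slide 2. Chi3l3 was -1.34 with age as a covariate, -0.58 without mice 866 and 17 and -0.35 within slide 1. Clec10a was -0.32 with age and -0.048 without mice 866 and 17. Nos2 was -1.11 within slide 2. Leaving out 1 mouse at a time gave 3.43 to 5.68 for Arg1, -0.030 to 0.72 for Arg2, 1.87 to 3.10 for Mrc1, 2.90 to 5.34 for Retnla, -0.46 to 1.21 for Chi3l3, 0.14 to 0.85 for Clec10a and -0.12 to 1.07 for Nos2. Genes past adjusted p 0.05 numbered 0 with all mice, 1 with normexp and quantile normalization, 1 in the deposited table, 4 with the macrophage score as a covariate and 0 to 3 leaving out 1 mouse (3 without +/L mouse 517). By the positive-and-significant flag Arg1 was detected on 7 arrays and Nos2 on 5. The Arg2 correlation with the macrophage score was 0.029 with normexp and quantile normalization. Apart from the changes that fewer samples bring, the cause of these changes was not tested. With detection on at least 5 arrays required, Arg1 had no value, and Nos2 entered limma without a filter alone (adjusted p = 0.932). No paired analysis was possible because the genotypes share no replicate numbers. The bounds of Arg1 and Cd163 with a mouse left out were chosen after seeing the data. Signals of Nos2 near background also have no order, and 5 tumours a group limit what could be detected.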

Other observations

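Mgl2, a second galactose-type lectin gene beside Clec10a and chosen here after its values were seen, was detected in every tumour. Its levels were 1.54, -2.27, -1.78, -1.46 and -2.76 in +/L mice 866, 688, 23, 517 and 20, and -3.16, -1.51, -2.0, -3.88 and -2.92 in +/+ mice 17, 19, 40, 101 and 11. Mouse 866 stood apart, while the other +/L tumours lay within the +/+ range or close above it. The difference was 1.35 (limma adjusted p = 0.647) with all mice and 0.63 without mouse 866.

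Interleukin 13, the other inducing cytokine of alternative activation and chosen here for that role after its values were seen, did not follow interleukin 4. Il13 averaged -3.82 ± 1.07 in +/L and -3.87 ± 0.75 in +/+ (SD, n = 5 each), a difference of 0.05 (limma adjusted p = 0.985). In mouse 866, where Il4 was highest, Il13 was -4.25, and its highest value was -2.16, in mouse 20.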
